A study of Mus musculus with 16 samples.

Results

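Imprinted genes were followed in the messenger RNA of mouse embryonic stem cells with and without Dnmt2, and 0 of their 10 tested references passed the test of a difference between the genotypes, as did 0 of all 10949 references tested (0%). The genes, chosen by name, were Phlda2, Cdkn1c, Grb10, Igf2r, Peg3, Mest, Plagl1, Impact, Snrpn and Peg10, 10 of 13275 genes with a listed messenger RNA in these libraries. They were followed through the RefSeq messenger RNA references (NM_ identifiers) on which the deposited files list cytosines: 12 references of 9 genes were listed, and Peg10 had no listed cytosine in any library. The stem cells were of the J1 background and were either wild type or Dnmt2-/-, the latter without the cytosine methyltransferase that modifies transfer RNAs (gene symbol Trdmt1). Cells of both genotypes were cultured in serum with ESGRO on primary mouse embryonic fibroblast feeders, which were taken off by letting them attach to dishes. RNA longer than 200 nt was depleted of ribosomal RNA, treated with bisulfite and sequenced, in 3 libraries per genotype. Of 16 libraries in the series, these 6 carry the messenger RNAs. The labels do not say whether replicates were separate cultures or whether the knockout is 1 clone, so each p-value measures only the spread between these libraries.

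An imprinted gene is transcribed mainly from the copy inherited from 1 parent, because DNA methylation laid down in the egg or sperm marks the 2 copies differently. Many imprinted genes set fetal and placental growth, and genes expressed from the maternal copy often restrain it while genes expressed from the paternal copy often promote it. Embryonic stem cells keep these marks in culture to a varying degree, and the level of imprinted transcripts is known to differ between cultures. The reads here were not separated by parental copy, so every value is the sum of both.

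Coverage is the number of reads over a cytosine, and a cytosine is listed only where it had at least 3. The level of a reference is its scaled mean coverage, the mean number of reads per cytosine over the cytosines listed in any library, divided by a scaling factor of the library. An unlisted cytosine counted as 0. It is a mean per listed cytosine, so stretches without a listed cytosine do not enter it, and levels of different genes cover different shares of their transcripts. Between 2304342 and 4289381 cytosines were listed per library, and the coverage summed over them ran from 37786723 (wild type replicate 3) to 143488903 (wild type replicate 2). Trdmt1 itself (NM_010067.4), the gene disrupted in the knockout, had scaled coverages of 4.32, 3.47 and 2.93 in wild type, against 1.30, 0.458 and 0.978 in the knockout, so all knockout libraries lay below all wild-type libraries (limma adjusted p = 0.370). Of 15 pluripotency genes 15 were listed, with summed levels of 2128 to 2438 in wild type, against 2332 to 3040 in the knockout. Dppa5a was the largest part of these sums, at 950.4 to 1245 in wild type, against 1279 to 1794 in the knockout. Of 18 feeder fibroblast genes 15 were listed, with summed levels of 104.6 to 172.8 and 93.4 to 126.7, while the fibroblast genes Lum, Pdgfrb and Postn had no listed cytosine. Of 18 genes of early lineages 10 were listed, at 33.6 to 79.5 and 45.2 to 74.3, and Afp, Cdx2, Elf5, Eomes, Fgf5, Foxa2, Hand1 and Sox17 had no listed cytosine.

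The sequences at the transcript starts show which part of each gene was read. Each line below is RNA-sense DNA from the RefSeq promoter table (GRCm38.p6, minus strand), and capitals mark cytosines that the deposited libraries list. The Phlda2, Igf2r and Peg3 lines run from transcript position 1 to 30, the line of the main Grb10 reference from 21 to 50 and that of the other Grb10 reference from 17 to 46.
Phlda2 NM_009434.2, chr7:143502495-143502524: agCagagCgagCgCatttggtgCaaCCttt
Igf2r NM_010515.2, chr17:12769677-12769706: cgctccggggaCggCCaCggagCgCCtCCt
Peg3 NM_008817.2, chr7:6730390-6730419: agacgctggggagtCaggagtCgCgggagg
Grb10 NM_010345.4, chr11:12037371-12037400: ggaggcggCaggaagggaagggCgCtgCga
Grb10 NM_001177629.1, chr11:12027926-12027955: tCtgtCtgttagaggagagtgtgaaatCta
Within the first 50 positions, all 11 listed cytosines of Phlda2, all 20 of Igf2r and all 7 of Peg3 fell on a C of the promoter table. For comparison, every such cytosine fell on a C in 2872 of 3996 references (71.9%) whose gene has 1 promoter in the table and that list at least 3 cytosines there. The first listed cytosine was at position 3 in Phlda2, 12 in Igf2r, 15 in Peg3 and 12 in Impact, so these transcripts were read almost from their first base.

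Grb10, which encodes an adaptor protein that dampens insulin and growth factor signalling, has alternative promoters, and it is transcribed from the maternal copy in most tissues and from the paternal copy in neurons. Its reference NM_010345.4 listed 150 cytosines and its reference NM_001177629.1 listed 3. All 4 listed cytosines in the first 50 positions of NM_010345.4 fell on a C of the window at chr11:12037371-12037670 and 0 of 4 on a C of the window at chr11:12027922-12028221. For NM_001177629.1 the counts were 3 of 3 in the second window and 1 of 3 in the first. The 250 bases before each start are shown because they differ in their CG dinucleotides, the targets of DNA methylation, which are in capitals.
Grb10 upstream of NM_010345.4, chr11:12037421-12037670: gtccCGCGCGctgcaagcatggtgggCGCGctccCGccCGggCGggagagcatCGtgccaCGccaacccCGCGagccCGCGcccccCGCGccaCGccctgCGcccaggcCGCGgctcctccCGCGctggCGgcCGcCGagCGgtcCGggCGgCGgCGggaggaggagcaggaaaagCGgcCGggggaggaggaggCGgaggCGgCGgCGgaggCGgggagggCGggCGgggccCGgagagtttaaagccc
Grb10 upstream of NM_001177629.1, chr11:12027972-12028221: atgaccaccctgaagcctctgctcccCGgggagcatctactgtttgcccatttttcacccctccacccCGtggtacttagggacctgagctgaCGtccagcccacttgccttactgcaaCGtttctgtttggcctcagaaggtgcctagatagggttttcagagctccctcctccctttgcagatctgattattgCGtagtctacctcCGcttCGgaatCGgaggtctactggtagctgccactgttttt
The start of the widely read reference has 40 CG in these 250 bases and the start of the barely read one has 8. The 3 cytosines of NM_001177629.1 had coverage in wild type replicate 2 (scaled 0.561) and knockout replicate 1 (scaled 1.70) and in no other library, so this reference was not tested.

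Among the maternally expressed genes, Phlda2 had the highest level of all references of these genes. It encodes a small pleckstrin homology domain protein that limits growth of the placenta. Its scaled coverage (NM_009434.2, chromosome 7, 215 cytosines) was 56.9, 49.9 and 79.0 in wild-type replicates 1, 2 and 3 and 71.2, 59.9 and 95.1 in the knockout. Replicate 3 was the highest of each genotype, and the groups overlapped. The log2 difference, knockout minus wild type, was 0.28 (SE 0.22, 95% interval -0.23 to 0.80, limma adjusted p = 0.955). The difference was 0.09 without knockout replicate 3 and 0.46 without wild type replicate 3. The level lay at the 95.5th percentile of the tested references.

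Grb10 (NM_010345.4, chromosome 11) had the smallest standard error of the 10 tested references. Its scaled coverage was 31.4, 29.8 and 32.7 in wild type, against 30.0, 28.7 and 26.1 in the knockout, and the groups overlapped only through knockout replicate 1 and wild type replicate 2. The log2 difference was -0.14 (SE 0.11, 95% interval -0.41 to 0.12, limma adjusted p = 0.957). With median-of-ratios or summed-coverage scaling the groups did not overlap, and with the mean taken over each library's own listed cytosines the difference was 0.06.

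Igf2r encodes the receptor that binds Igf2 and carries it to the lysosome for degradation. Its scaled coverage (NM_010515.2, chromosome 17, 2152 cytosines) was 20.2, 16.1 and 22.9 in wild type, against 16.3, 16.4 and 18.8 in the knockout. Wild type replicate 2 was the lowest library and wild type replicate 3 the highest, so the knockout libraries lay inside the wild-type range. The log2 difference was -0.19 (SE 0.16, 95% interval -0.55 to 0.17, limma adjusted p = 0.957), and it ran from -0.33 without wild type replicate 2 to -0.0313 over each library's own listed cytosines.

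Cdkn1c encodes p57Kip2, an inhibitor of cyclin-dependent kinases that stops cell division. Its reference NM_009876.4 (chromosome 7, 52 cytosines) stood at 14.7, 7.37 and 7.79 in wild type, against 7.09, 10.4 and 5.599 in the knockout. Its reference NM_001161624.1 (40 cytosines) stood at 9.53, 5.34 and 4.31 in wild type, against 6.0, 4.79 and 2.14 in the knockout. In both references wild type replicate 1 was the highest library and knockout replicate 3 the lowest, and the groups overlapped. The log2 differences were -0.32 (SE 0.31, limma adjusted p = 0.972) and -0.54 (SE 0.39, limma adjusted p = 0.934). They were -0.021 and -0.24 without wild type replicate 1, -0.14 and -0.17 without knockout replicate 3, -0.55 without knockout replicate 2 for the first and -0.81 without knockout replicate 1 for the second.

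Of the paternally expressed genes, Impact was the highest. Its protein inhibits the kinase Gcn2, which slows translation when amino acids are scarce. The scaled coverage of NM_008378.2 (chromosome 18, 646 cytosines) was 46.8, 32.5 and 46.0 in wild type, against 36.1, 40.6 and 44.6 in the knockout, with every knockout library inside the wild-type range. The log2 difference was -0.03 (SE 0.17, 95% interval -0.43 to 0.36, limma adjusted p = 0.995), and its sign changed in 6 of 17 alternative fits.

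Peg3 encodes a large zinc finger protein that acts as a transcription factor. The scaled coverage of NM_008817.2 (chromosome 7, 1312 cytosines) was 5.26, 7.02 and 9.43 in wild type, against 8.60, 8.55 and 12.2 in the knockout. Knockout replicate 3 was the highest library, and wild type replicate 3 lay above the other two knockout libraries, so the groups overlapped. The log2 difference was 0.43 (SE 0.24, 95% interval -0.12 to 0.97, unadjusted p = 0.108, limma adjusted p = 0.844), and it kept its sign in all 17 alternative fits, at 0.23 to 0.62. Over each library's own listed cytosines the levels were 7.99, 7.59 and 17.0 in wild type, against 9.92, 9.72 and 13.3 in the knockout. By that measure wild type replicate 3 was the highest library. Only cytosines with at least 3 reads enter it, and 3 reads scale to 7.50 in wild type replicate 3, the library with the lowest summed coverage. That library listed 726 of the 1312 cytosines, and the part of this minimum in its value was not tested. These levels used the scaling factors of the main fit, whereas the alternative fit took its own.

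Mest, also called Peg1, encodes a protein of the alpha/beta hydrolase family and is strongly expressed in embryonic mesoderm. Its reference NM_008590.2 (chromosome 6, 34 cytosines) stood at 6.48, 8.36 and 25.2 in wild type, against 4.36, 3.73 and 14.4 in the knockout. Its reference NM_001252292.1 (33 cytosines) stood at 2.97, 0.952 and 5.38 in wild type, against 0.542, 1.31 and 3.37 in the knockout. In both references replicate 3 was the highest library of its genotype, and the groups overlapped. The log2 differences were -0.79 (SE 0.60, 95% interval -2.17 to 0.59, limma adjusted p = 0.948) and -0.67 (SE 0.64, limma adjusted p = 0.972). For NM_008590.2 the difference was -0.24 without wild type replicate 3 and -1.37 without knockout replicate 3.

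Plagl1, also called Zac1, encodes a zinc finger transcription factor that regulates other imprinted genes. The scaled coverage of NM_009538.2 (chromosome 10, 233 cytosines) was 0.420, 0.890 and 1.01 in wild type, against 0.621, 0.484 and 3.76 in the knockout. Knockout replicate 3 stood apart: it listed 203 of the 233 cytosines (87.1%), against 26 to 81 (11.2% to 34.8%) in the other libraries. The log2 difference was 0.43 (SE 0.73, 95% interval -1.26 to 2.12, limma adjusted p = 0.988). The reference passed the minimum mean of 1 only through knockout replicate 3, and without that library it was not tested.

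Snrpn encodes SmN, a protein of the spliceosome in brain. A single stretch of NM_001082962.1 (chromosome 7), 10 cytosines from position 147 to 176, was listed, in knockout replicate 2 alone (scaled coverage 2.82), and it was not tested. That value is 3 reads at each cytosine, the fewest that are listed. Peg10, a gene derived from a retrotransposon that is needed for the placenta, had 2 messenger RNA references in the RefSeq table and none with a listed cytosine. Snrpn had 9 references in that table, Plagl1 4, and Cdkn1c, Grb10 and Mest 3 each, while Phlda2, Igf2r and Peg3 had 1. Over all genes with 1 reference 58.6% of references, and so of genes, were listed. Of genes with 2 or more, 70.7% had a listed reference, but 30.4% of their references were listed. The median number of listed cytosines in the gene's best reference was 334 for genes with 1 and 87 for genes with more. The levels of Cdkn1c, Grb10, Mest and Snrpn rest on such listed parts of a transcript, and the part of the number of references in these levels was not tested.

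**Figure D1:**
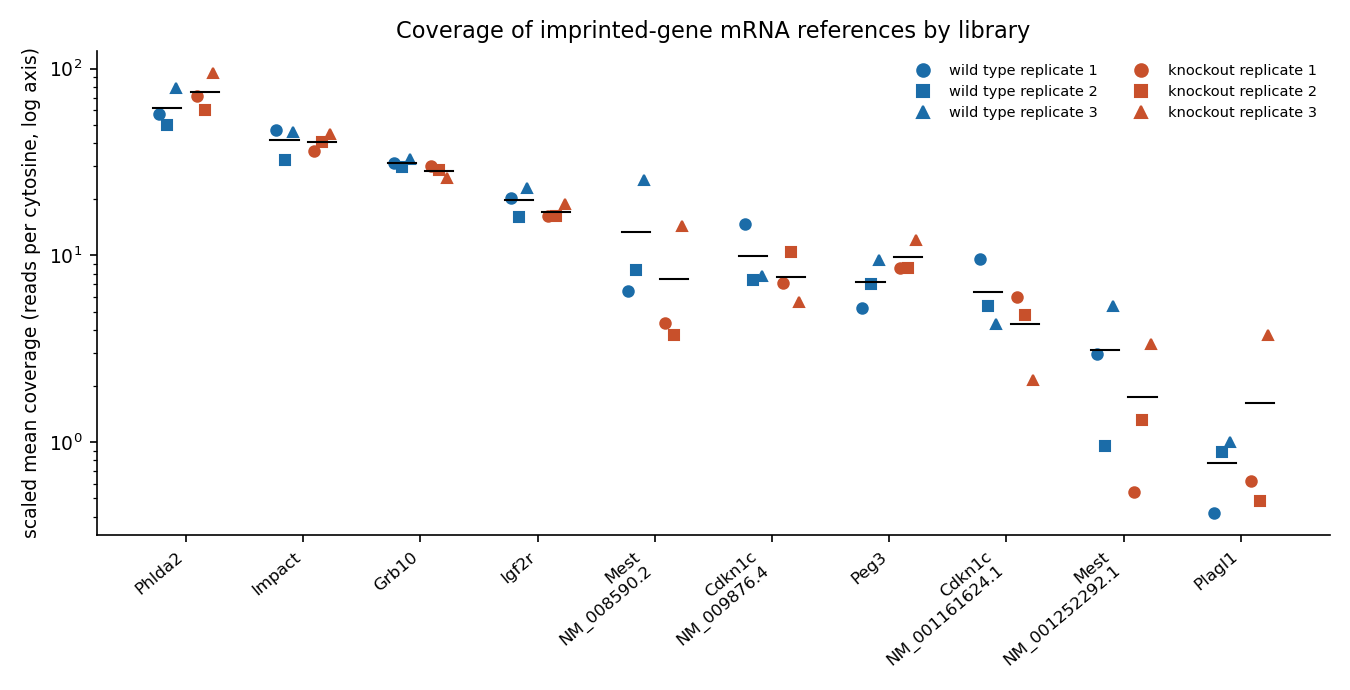
Scaled mean coverage in reads per cytosine (log axis) of the 10 tested references of the imprinted genes, with 1 point per library, wild type in blue and knockout in red, the marker shape giving the replicate and the bar the mean of 3 libraries. The references run from Phlda2 at 49.9 to 95.1 down to Plagl1 at 0.420 to 3.76, and the 2 genotypes overlap in each.

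Levels per listed cytosine were ordered, with the limit that Grb10, Mest and Cdkn1c were listed over parts of their transcripts. Phlda2 lay above Impact, Impact above Grb10 and Grb10 above Igf2r in 6 of 6 libraries. Igf2r lay above the Mest reference NM_008590.2 in 5 of 6. The next neighbours could not be ordered: Mest lay above Cdkn1c (NM_009876.4) in 3 of 6 libraries and Cdkn1c above Peg3 in 3 of 6. Peg3 lay above the Cdkn1c reference NM_001161624.1 in 5 of 6, and the last steps, down to the Mest reference NM_001252292.1 and to Plagl1, held in 4 of 6 each. In percentiles of all tested references, Phlda2, Impact, Grb10 and Igf2r stood at 95.5, 92.0, 88.5 and 80.3, and Plagl1 stood at 5.01.

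In several of these genes replicate 3 lay to the same side of the mean of replicates 1 and 2 in both genotypes. The share of all references that do so was not counted, so this is not shown to be particular to these genes. Over all tested references, the deviations of the replicate 3 libraries from the mean of their genotype correlated at 0.304. The replicate 3 library of Mest NM_008590.2 stood 3.40 times above the mean of replicates 1 and 2 in wild type, against 3.57 times in the knockout. For Mest NM_001252292.1 the ratios were 2.75 and 3.64. Phlda2 (1.48 and 1.45), Peg3 (1.54 and 1.42), Igf2r (1.26 and 1.15) and Impact (1.16 and 1.16) also had ratios above 1 in both genotypes. Plagl1 had 1.54 and 6.81, but it passed the minimum mean of 1 only through knockout replicate 3. That filter therefore selected for its high knockout ratio. In Impact, wild type replicate 1 (46.8) still lay above wild type replicate 3 (46.0). Cdkn1c had ratios below 1, at 0.706 and 0.641 for NM_009876.4 and 0.580 and 0.397 for NM_001161624.1, and Grb10 stood at 1.07 and 0.889. For NM_009876.4, wild type replicate 2 (7.37) lay below wild type replicate 3 (7.79). The summed early lineage genes had ratios of 2.29 and 1.64. The summed pluripotency genes, of which Dppa5a was the largest part, had 0.943 and 0.776, whereas the summed feeder fibroblast genes had 1.61 in wild type, against 0.764 in the knockout. The part of these marker genes in the replicate 3 values of Mest was not tested. Without both replicate 3 libraries the log2 difference was -0.82 for Mest NM_008590.2, 0.28 for Phlda2 and 0.46 for Peg3 (limma adjusted p = 0.303, 0.586 and 0.463). In bulk RNA, fewer cells of a type and less RNA per cell cannot be told apart.

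Coverage was followed along the transcripts. Grb10 NM_010345.4 was listed in 2 blocks, 79 cytosines from position 29 to 293 and 71 from position 660 to 926, with a gap of 367 nt between them. Its first block had a mean scaled coverage of 41.2 ± 5.69 (SD, n = 3) in wild type, against 35.8 ± 3.54 in the knockout, and its second block 20.2 ± 6.34 and 19.8 ± 5.40. Impact was covered less toward its 3' end: its last stretch of equal length had 0.575 to 0.780 times the coverage of the first in wild type, against 0.510 to 0.719 times in the knockout. Such ratios were 0.833 to 0.975 and 0.843 to 0.923 for Igf2r and 0.929 to 1.01 and 0.824 to 1.21 for Phlda2. Igf2r still varied along its length: of 30 bins the highest, centred on position 3715, stood at 44.7, 36.8 and 61.8 in wild type, against 38.6, 33.8 and 57.6 in the knockout. In Peg3 the middle stretch (positions 2217 to 4418, 493 cytosines) stood at 3.83, 5.53 and 4.86 in wild type, against 6.80, 6.83 and 8.32 in the knockout, where the groups did not overlap, while in the other two stretches they did. That stretch was singled out after its values were seen and was not tested. Unlisted cytosines count as 0 in it, and over its whole length Peg3 listed fewer cytosines in wild type replicates 1 and 3 (863 and 726) than in the knockout (1138 to 1200), with 1214 in wild type replicate 2. Mest and Cdkn1c were listed only in short stretches, from position 214 to 345 and 253 to 386 in the references of Mest and from 135 to 281 and 171 to 278 in those of Cdkn1c.

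**Figure D2:**
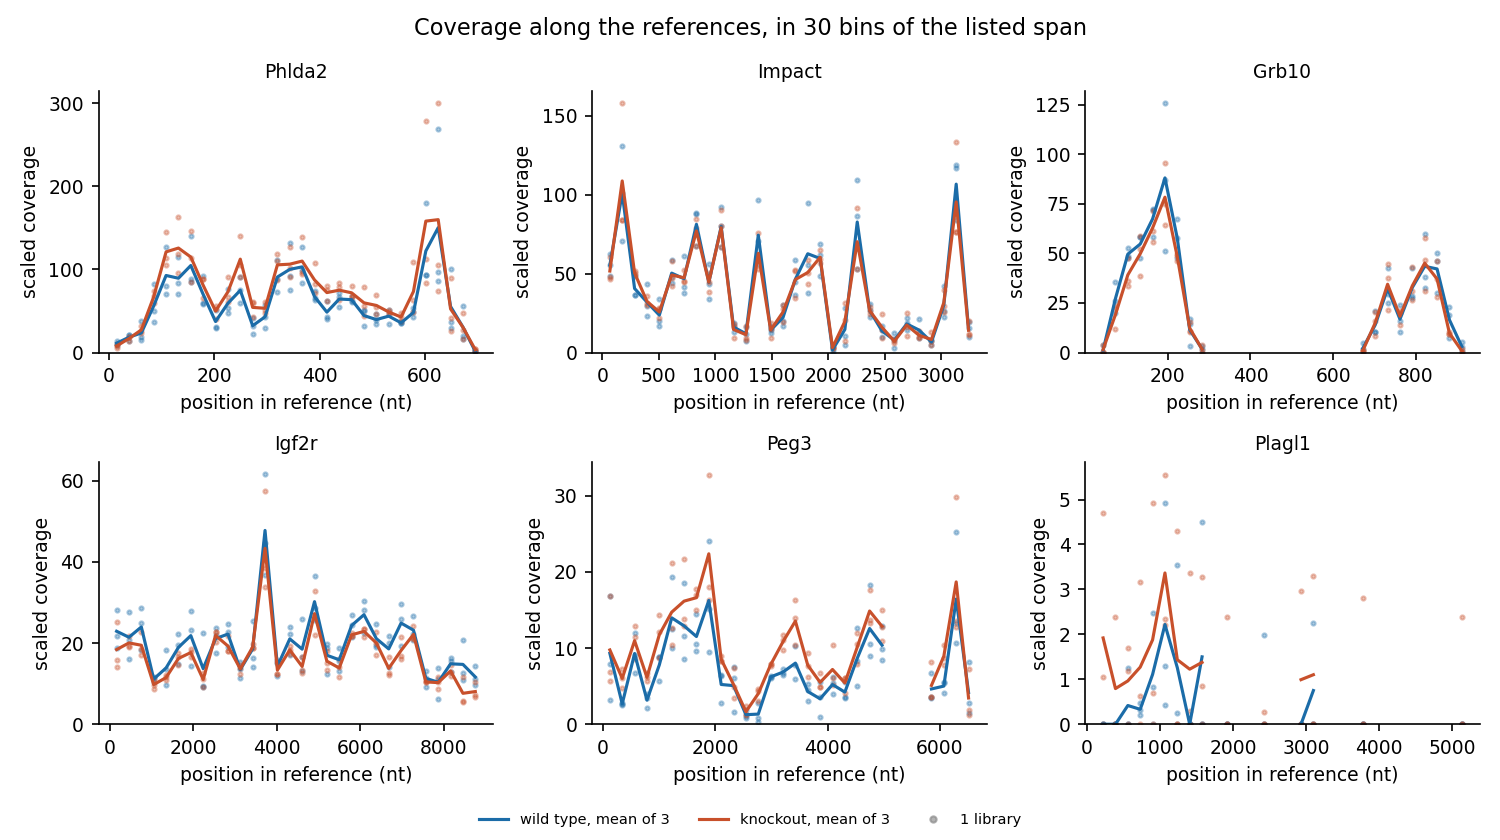
Scaled coverage (reads per cytosine) against the position in the reference (nt), in 30 bins of the listed span, for 6 references; lines are the mean of 3 libraries per genotype, points are single libraries, and breaks in a line mark stretches without a listed cytosine (in Plagl1, bins standing alone carry points and no line). In Igf2r both lines have their highest bin at position 3715, and Grb10 shows 2 blocks with a gap from position 293 to 660.

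The counts for the imprinted genes were set beside those for all messenger RNAs. Of their 10 tested references 0 passed a limma adjusted p of 0.05 and 0 had an unadjusted p under 0.05. Over all references 778 (7.11%) had an unadjusted p under 0.05. Also in 0 of the 10 were all knockout libraries above or all below the wild type ones, against 6.13% above and 5.98% below over all references. Of the 10, 3 had a log2 difference above 0 and 7 below, with a median of -0.17. Over all references 55.1% were above 0 and the median was 0.03.

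A wider list of 70 other imprinted genes had 46 genes listed. Names were matched through NM_ references only, so non-coding genes on that list, such as H19 and Meg3, could not be listed. Of the 46 genes 29 were tested through 33 references, 21 of them higher in the knockout and 12 lower, with a median log2 difference of 0.07. None of the 33 passed the limma test, 2 had an unadjusted p under 0.05, and the libraries did not overlap in 5, with 3 higher and 2 lower. The most abundant were Cd81, which encodes a tetraspanin, with a wild-type mean of 72.9 ± 9.86 (SD, n = 3) and a knockout mean of 72.6 ± 1.24, and Slc38a4, an amino acid transporter of the placenta and liver, at 38.4 ± 5.38 and 41.1 ± 5.77. Commd1 (log2 difference -0.20), Ago2 (0.07), Copg2 (-0.11), Nap1l4 NM_008672.3 (0.26), Gab1 NM_021356.2 (0.36) and Mettl9 (-0.30) completed the 8 highest.

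The 2 references of that list with an unadjusted p under 0.05 had low levels. Dio3, which encodes the deiodinase that inactivates thyroid hormone and is expressed from the paternal copy of the Dlk1 to Dio3 region, stood at 0.880, 1.27 and 0.652 in wild type, against 4.10, 3.13 and 3.08 in the knockout. All knockout libraries were higher, and the log2 difference was 1.47 (SE 0.33, unadjusted p = 0.00217, limma adjusted p = 0.370), or 0.22 with the mean over each library's own listed cytosines and 0.44 over cytosines listed in all 6 libraries. Dlk1 and Rtl1 of the same region had no listed cytosine, and Meg3, a non-coding RNA, could not be listed through NM_ references. Ndn, which encodes the growth suppressor necdin of the Snrpn region, was named after its values were seen: it stood at 7.21, 4.84 and 5.92 in wild type, against 3.45, 3.59 and 2.80 in the knockout, a log2 difference of -0.77 (SE 0.20, limma adjusted p = 0.379).

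The other 3 largest differences on that list were of references listed in 1 to 3 libraries. Nnat NM_180960.3 had a scaled coverage of 1.03 and 9.16 in wild-type replicates 2 and 3 and was unlisted in the other libraries. Dcn NM_001190451.1, a matrix proteoglycan gene that fibroblasts also express, was listed in wild type replicate 3 alone, at 7.50. That value is 3 reads at each of 8 cytosines, the fewest reads that are listed, in the library with the lowest summed coverage. Cobl NM_001282993.1 was listed in wild type replicate 2 at 1.89 and in knockout replicates 1 and 2 at 3.88 and 3.58. Their log2 differences were -1.96, -1.33 and 1.30, with limma adjusted p of 0.894, 0.975 and 0.957.

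**Figure D3:**
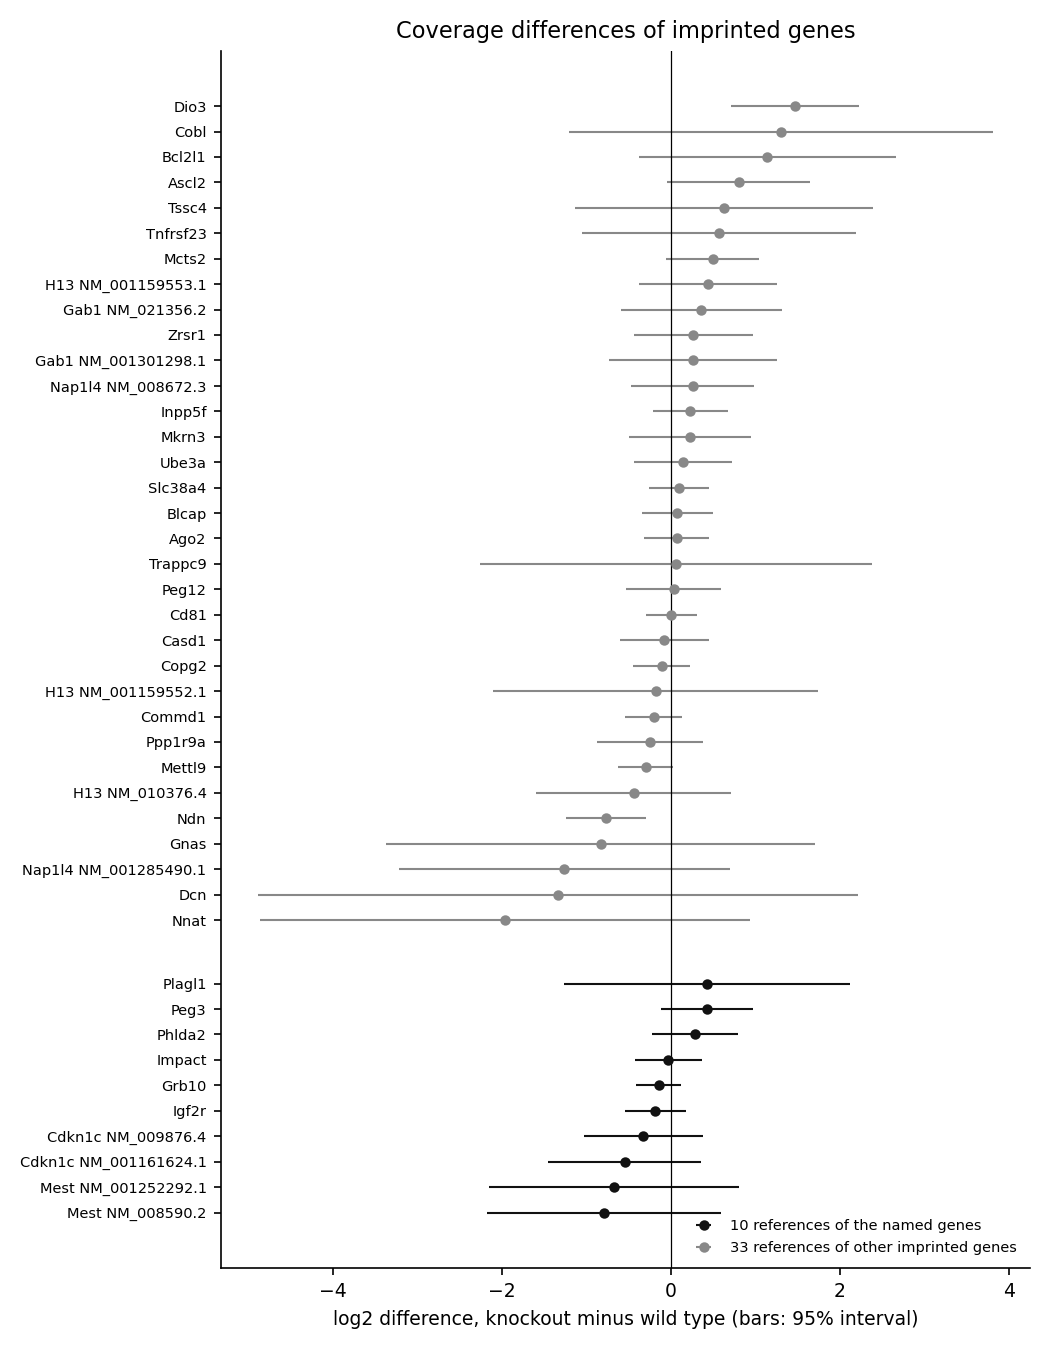
Log2 difference in scaled coverage, knockout minus wild type, of the 10 tested references of the named imprinted genes (black) and the 33 tested references of the other imprinted genes (grey), with 95% intervals from limma. The intervals of all 10 black points include 0, and among the grey points those of Dio3 and Ndn do not.

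Bisulfite turns unmethylated cytosine into uracil, so the share of reads that still show a cytosine, the non-conversion, measures 5-methylcytosine in the RNA plus incomplete conversion. Pooled over all listed messenger RNA cytosines it was 1.66%, 1.49% and 1.59% in wild type, against 1.85%, 1.84% and 1.48% in the knockout (mean 1.58% ± 0.0864 and 1.72% ± 0.214, SD, n = 3; exact permutation test, two-sided p = 0.4, where 0.1 is the smallest that 3 against 3 allow). Of the imprinted transcripts, the 5 references with the most reads lay near this level. Phlda2 stood at 1.71%, 1.57% and 1.57% in wild type, against 1.56%, 1.79% and 1.34% in the knockout, from 6794 to 25776 reads over cytosines per library. Igf2r stood at 1.54%, 1.49% and 1.47% and at 1.80%, 1.72% and 1.47%, from 19711 reads or more. Both knockout replicates 1 and 2 of Igf2r lay above all wild-type libraries, as they did over all messenger RNAs, and replicate 3 did not.

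Impact had 1.55%, 1.45% and 1.29% in wild type, against 1.83%, 1.87% and 1.33% in the knockout, and Peg3 had 1.73%, 1.45% and 1.496% and 1.97%, 1.71% and 1.44%. Grb10 NM_010345.4 had 1.72%, 1.53% and 1.68% and 2.25%, 1.86% and 1.40%. Grb10 lay above its library's pooled value in 5 of 6 libraries, whereas Igf2r and Impact lay above theirs in 1 of 6 each. Between genotypes the exact permutation p, two-sided, was 0.7 for Phlda2 and Peg3, 0.5 for Grb10, 0.4 for Igf2r and 0.3 for Impact. The adjusted values over the 10 references were 0.875 to 1. With 3 against 3 libraries 0.1 is the smallest p, so no reference could pass 0.05 in this test. Without knockout replicate 3, Grb10, Igf2r and Impact had all knockout libraries above all wild-type libraries, as had 38.3% of the 10166 references with reads in every library and the pool of all messenger RNA cytosines. Without knockout replicate 2 Phlda2 had them below, against 3.37% of those references below and 8.94% above. With all 6 libraries the groups overlapped in each of the 10, against 6.74% of all references with the knockout above and 1.18% below. The other 5 references had few reads, 21 to 1104 over cytosines per library, and spread more widely, reaching 4.35% in Mest, 2.94% in Cdkn1c and 2.16% in Plagl1.

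**Figure D4:**
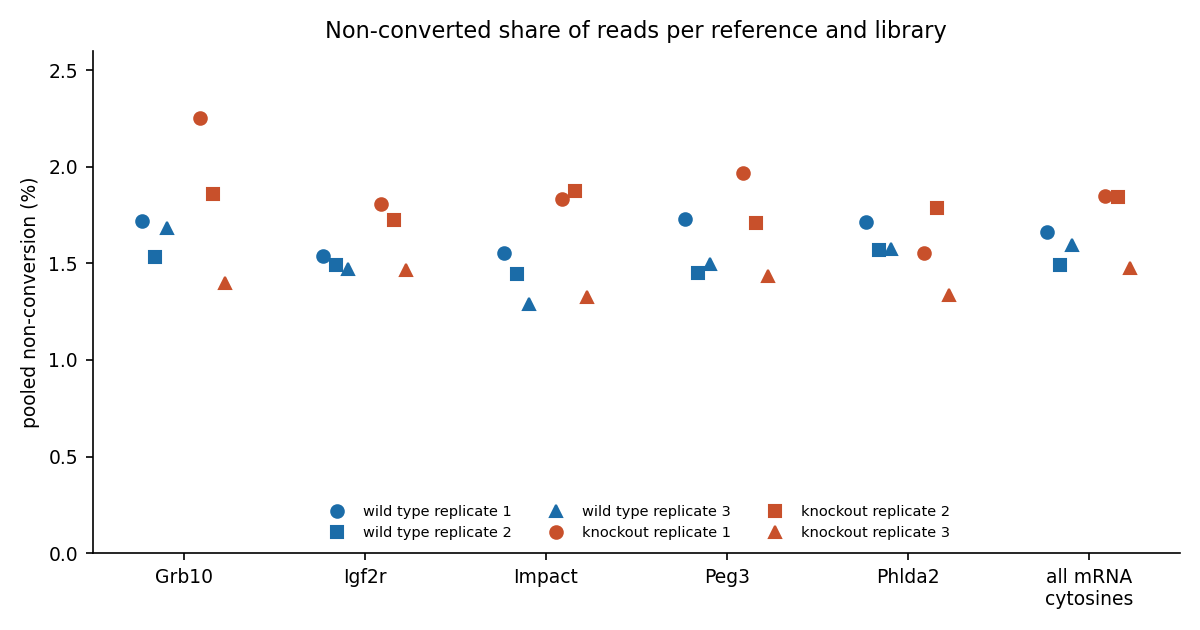
Non-converted share of reads (%) pooled over all listed cytosines of 5 imprinted references with at least 1000 reads in each library, and over all messenger RNA cytosines, with 1 point per library, wild type in blue and knockout in red, the marker shape giving the replicate. All points lie between 1.29% and 2.25%, and knockout replicates 1 and 2 are the highest of all 6 libraries in Igf2r, Impact and Grb10.

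No cytosine of an imprinted transcript was called methylated. A call needed, in each library of the genotype, at least 10 reads and at least 10% non-conversion, besides an adjusted binomial p under 0.05. Of the cytosines of these genes 0 of 1514 tested in wild type, against 0 of 2631 tested in the knockout were called, against 0.0212% and 0.0283% of all messenger RNA cytosines. Between genotypes, 9 cytosines of these genes were tested with edgeR and 0 passed, with adjusted p of 0.999 each and 0 unadjusted p under 0.05. Over all messenger RNAs 0 of 8193 cytosines passed (0%) and 202 had an unadjusted p under 0.05.

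The cytosine with the highest mean non-conversion, among the 1468 read at least 10 times in all 6 libraries, was position 261 of Impact, at a mean of 7.74%. It stood at 2.70%, 7.02% and 9.09% in wild type, from 37, 57 and 11 reads, and at 15.4%, 8.16% and 4.08% in the knockout, from 52, 49 and 49 reads. In the knockout its adjusted binomial p was 0.000842, but only knockout replicate 1 reached 10% (95% exact interval 6.88% to 28.1%). Position 732 of Grb10 NM_010345.4 had a mean of 7.48%, with 23.1% in wild type replicate 3 from 13 reads (95% exact interval 5.04% to 53.8%) and 1.96% to 7.84% in the other libraries. Position 4957 of Igf2r had a mean of 7.29%, 11.01% ± 7.71 (SD, n = 3) in wild type, against 3.57% ± 3.57 in the knockout. The highest of Peg3 (position 3311), Phlda2 (position 497) and Mest NM_008590.2 (position 269) had means of 4.54%, 4.42% and 3.51%. These intervals cover counting error only, since the reads carry no molecular identifiers and copies of a molecule cannot be recognised.

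Imprinted promoters often hold many CG dinucleotides, and the zinc finger protein Zfp57 keeps imprints by binding the motif TGCCGC when it is methylated. Of the 10 genes 7 had RefSeq promoter windows, 13 windows of 300 bases, while Cdkn1c, Impact and Peg10 had none in the table. The median over all 32851 windows was 7 CG, and 9 of the 13 had more. The window of Grb10 NM_010345.4 had 45, that of Igf2r 34, those of Phlda2 and Plagl1 26 each, those of Mest 8, 17 and 17, that of Peg3 13 and those of Snrpn 2 to 7. TGCCGC, or its complement GCGGCA on the other strand, was in 5 of the 13 windows (1 of Grb10, 2 of Mest that overlap each other, 1 of Plagl1 and 1 of Snrpn), against 11.6% of all windows. The overlapping pair of Mest shares its sequence and its matches.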

How the data were processed

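The 6 rRNA-depleted long libraries were analysed. Per the file headers, the authors deposited for each cytosine of a reference RNA its coverage, a count of reads, and its unconversion ratio, a fraction from 0 to 1. BSMAP and build mm9 are named in the submitters' processing notes, and the sources used here give no version, filters or use of strand. The product of both was whole to within 8e-10 in each of 20824445 entries (tolerance 0.01), which gave the non-converted counts. Of 15330 references, 15239 were matched to a symbol through RefSeq tables of GRCm38.p6, used for names, chromosomes, numbers of references and promoter sequences. Depth sets the precision: listed cytosines had a median of 6 to 11 reads per library.

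Scaled mean coverage used TMM factors (edgeR 4.0.16, R 4.3.3). References with a mean of 1 or more were log2 transformed after adding 0.5, which understates the differences of low references, and tested with the trended limma 3.58.1 fit. Cytosines were tested between genotypes with the edgeR quasi-likelihood test on the non-converted and converted reads, each library having its own term, where all 6 libraries had 10 reads or more and mean non-conversion was at least 5%. Methylation calls used exact 1-sided binomial tests against the background of a library (pooled non-conversion of cytosines at 10% or less), combined by Fisher's method. Every adjusted p is Benjamini-Hochberg over all features tested, threshold 0.05. Tests were checked on simulated data whose changes were larger than any seen in the tested references and cytosines of these genes. That check does not show whether differences as small as theirs would be found. Genes, lists and tests were chosen with earlier results of these data known. Text on other imprinted genes names the 8 with the highest level, the 4 with the largest differences and any past the threshold; of the marker and maintenance lists it names the 3 highest, and per member gene the most non-converted cytosine. Alternatives were other scalings, pseudocounts, filters and means, an edgeR test of coverage, a replicate block, other coverage minimums and left-out libraries.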

Additional observations from a re-analysis of the deposited data

How the results depend on the processing

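The 10 references of the imprinted genes kept the direction of their log2 difference in 158 of 166 alternative fits, with a lowest adjusted p of 0.157, so none passed 0.05. The 8 changes of sign were in Impact, which was 0.0748 over cytosines listed in all 6 libraries, 0.0969 over each library's own listed cytosines, 0.0537 with edgeR and -0.21 to 0.0583 with 1 library left out, and, over own listed cytosines, in Grb10 (0.0586) and Plagl1 (-0.0691). Of the other imprinted genes, Cd81 was -0.012 with median-of-ratios scaling, Copg2 0.0223 over own listed cytosines, and with 1 library left out Cd81 ran from -0.0943 to 0.0925, Ago2 from -0.0650 to 0.21, Nap1l4 from -0.0949 to 0.46 and Gab1 from -0.12 to 0.63. The count of references past the threshold was 0 but for 1 over cytosines listed in all 6 libraries (Foxd3) and 1 without knockout replicate 1 (Cebpz), a range of 0 to 1 with 1 library left out. The count of cytosines was 0 but for 1 without wild type replicate 3 (Rad23b, position 307). Members called methylated stayed at 0. The number of member references whose pooled non-conversion did not overlap ranged from 0 to 3 with 1 library left out (1 without knockout replicate 2, 3 without knockout replicate 3, where 38.3% of all references did not overlap in that direction). The causes were not tested. With the replicate number as a block 0 references passed and 1186 had an unadjusted p under 0.05, against 778. Correlations between genotypes were taken over the tested references, on each library's deviation from the mean log2 level of its genotype. Such deviations sum to 0 within a genotype, so these are not correlations of the levels, and positive values bring negative ones. Same-numbered libraries had 0.139, 0.0404 and 0.304, and wild type replicate 1 correlated best with knockout replicate 2 (0.216). The replicate 3 libraries correlated best with each other and at -0.291 to -0.112 with replicates 1 and 2 of the other genotype. The numbers were not taken as pairs in the main fit, so a shift shared by the replicate 3 libraries enters its standard errors. With the block 0 cytosines passed.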

Other observations

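Genes that set, maintain or read imprints were followed as a separate list, and 0 passed the threshold. Of 18 such genes 17 were listed and 16 tested, and Uhrf1 had no listed cytosine. Of their 19 tested references 11 were higher in the knockout (57.9%) and 8 lower, with a median log2 difference of 0.07. Over all references 55.1% were higher and the median was 0.03. Ctcf, named after its values were seen, was the 1 reference with an unadjusted p under 0.05, against 7.11% over all references. All its knockout libraries were lower (log2 difference -0.37, limma adjusted p = 0.568), and in 1 reference of the list all were higher. Levels on the list ran from the 98.9th percentile of tested references (Trim28) down to the 3.10th (Dnmt1 NM_001199433.1). No other Dnmt1 reference was listed, and this one had 138 cytosines, of which 0 were listed in all 6 libraries. Its percentile is therefore that of the reference and not of the gene. Trim28, the corepressor that Zfp57 recruits to imprinted loci, had a scaled coverage of 266.8 ± 56.0 (SD, n = 3) in wild type, against 284.3 ± 15.7 in the knockout. The chromatin remodeller Hells stood at 61.3 ± 12.5 and 57.0 ± 14.3, and the Polycomb subunit Eed, which silences some imprinted genes, at 33.9 ± 8.19 and 35.2 ± 3.23. Their limma adjusted p was 0.985, 0.990 and 0.991.

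In the marker lists, 13 of 16 tested feeder fibroblast references were lower in the knockout (median log2 difference -0.32) and 11 of 15 pluripotency references were higher (median 0.17). Of these lists 0 passed the limma threshold, and 2 and 5 had an unadjusted p under 0.05. Over all references 55.1% were higher and 7.11% had an unadjusted p under 0.05. Klf2, named after its values were seen, was lower in the knockout among the 5 (log2 difference -0.64), and the rest of the 5 were higher. The highest fibroblast genes were Fn1 (33.2 ± 6.60 in wild type, against 29.04 ± 6.58 in the knockout), Tagln (21.1 ± 4.48 and 26.2 ± 2.32) and Acta2 (19.9 ± 3.33 and 18.3 ± 9.70). The highest pluripotency genes were Dppa5a (1062 ± 159.5 and 1607 ± 284.8), Zfp42 (322.7 ± 49.2 and 330.6 ± 3.37) and Tdgf1 (175.2 ± 43.9 and 205.5 ± 59.8). Of the 6 tested early lineage references 3 were higher and 3 lower, 0 passed the threshold and 2 had an unadjusted p under 0.05. These 2, Sox1 (log2 difference -1.34) and Pax6 NM_001244200.1 (-2.06), were named after their values were seen. In both, all knockout libraries were lower, and their mean levels were low, at 2.22 and 1.13. Pax6 was unlisted in knockout replicates 2 and 3. The highest early lineage genes were the keratins Krt8 (20.1 ± 13.6 and 29.2 ± 8.44) and Krt18 (10.5 ± 6.01 and 14.4 ± 3.49) and the neural filament gene Nes (9.46 ± 4.84 and 6.19 ± 3.88).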
